A study of Mus musculus with 2 samples.

Results

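The SOCS and STAT genes described here are Socs1, Socs2, Socs3, Cish, Stat3, Stat4, Stat5a, Stat5b and Stat6, 9 of the 31053 genes in the count matrix. They were chosen as a family, by name, and all 9 were followed over every droplet barcode, taken as a cell, in which 500 or more genes were detected and mitochondrial transcripts made up at most 10%. Lethally irradiated Balb/c mice had received C57BL/6 (B6) bone marrow, 5000000 cells each, together with B6 splenocytes set to deliver 800000 alpha beta T cells, a transplant model of graft-versus-host disease (GVHD). The colons of 5 recipients were dissociated with a lamina propria kit and pooled 21 days later, donor T cells were sorted as H2-Kb+ TCR-B+, and 1 RNA library and 1 T cell receptor (TCR) library were made from the same cDNA with 10x Chromium v2 5′ reagents. Every cell therefore came from an irradiated, transplanted recipient: there was no control recipient, no other time point, and no label that ties a cell to a mouse. With 1 pooled sample there was no replicate and no test, and all intervals below are 95% intervals that cover counting error only.

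Many cytokine receptors of T cells lack enzyme activity of their own and signal through JAK kinases, which phosphorylate STAT proteins. Phosphorylated STATs pair, enter the nucleus and switch on target genes, among them the SOCS genes, whose products bind receptors, JAKs or STATs and damp the signal that induced them. In textbook accounts Stat4 serves IL-12 and interferon gamma producing (Th1) cells, Stat6 serves IL-4 and type 2 (Th2) cells, Stat3 serves IL-6, IL-23 and IL-17 producing (Th17) cells, and Stat5a and Stat5b serve IL-2 and related cytokines. STAT proteins are controlled largely by phosphorylation, which RNA does not measure.

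After filtering, 5333 of 5348 barcodes were kept, with 2549 to 39138 unique molecular identifiers (UMIs, counts of captured transcripts) per cell, a median of 4800, and 1804 genes in the median cell. The CD4 class (a Cd4 UMI and none of Cd8a or Cd8b1) held 1861 cells with a median of 4768 UMIs, and the CD8 class (a Cd8a or Cd8b1 UMI and none of Cd4) held 2391 cells with a median of 4910 UMIs. The sample title names CD4 T cells, but the CD8 class was the larger by this count. A further 301 cells carried UMIs of both lineages and 780 of neither. All 8 T cell markers were detected in both classes, with summed levels of 44.6 and 48.6 UMIs per 10000 UMIs in CD4 and CD8 class. All 10 macrophage markers were also detected in both, at summed levels of 1.09 and 0.89, and 173 cells carried UMIs of at least 2 of them.

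The 9 genes lie on mm10 (GENCODE M21) as follows, all as protein-coding genes. On chromosome 11 lie Socs3 (117966079 to 117970047, minus strand), Stat5b (100780731 to 100850724, minus), Stat5a (100859351 to 100885169, plus) and Stat3 (100885098 to 100939540, minus). Socs1 lies on chromosome 16 (10782240 to 10785536, minus), Cish on chromosome 9 (107296026 to 107302784, plus) and Stat4 on chromosome 1 (51987148 to 52107189, plus). Chromosome 10 carries Socs2 (95385362 to 95417180, minus) and Stat6 (127642986 to 127660957, plus). Stat3 and Stat5a overlap by 72 bases on opposite strands, Stat6 overlaps Nab2 by 40 bases on the opposite strand, and Cish overlaps the antisense gene Gm17041, which had 10 UMIs in the kept cells. Stat5a and Stat5b are closely similar copies, so reads from shared stretches could have been assigned to either or to neither, and the split between them is uncertain.

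Promoter windows from RefSeq (GRCm38.p6) were available for 8 of the 9 genes, in 11 windows of 300 bases that run from 250 bases before to 50 after an annotated start. The palindrome TTCNNNGAA, the classical core that STAT dimers bind, was searched in them (it reads the same on both strands). It was found in 2 of the 11 windows, those of Cish and Socs3, against 2726 of 32851 windows of all genes, or 8.30%. The Cish window held 2 copies, TTCCTGGAA at base 1 and TTCTTGGAA at base 12 after the annotated start, and 150 of all windows, 0.457%, held 2 or more. The Socs3 window held TTCTTAGAA, with its first base at -153 from the start. The spacing TTCNNNNGAA, which Stat6 prefers, was in none of the 11 windows and in 6.95% of all windows. The letters describe these windows only and are neither a binding site nor a cause of the levels below. The windows of Cish and Socs3, and that of Socs1 as a SOCS gene without the palindrome, are printed 5′ to 3′ on the gene's strand without their last 20 bases, with the palindrome in capitals. They cover chr9:107296409-107296688 (plus strand) for Cish, chr11:117969337-117969616 (minus strand) for Socs3 and chr16:10785507-10785786 (minus strand) for Socs1.
Cish: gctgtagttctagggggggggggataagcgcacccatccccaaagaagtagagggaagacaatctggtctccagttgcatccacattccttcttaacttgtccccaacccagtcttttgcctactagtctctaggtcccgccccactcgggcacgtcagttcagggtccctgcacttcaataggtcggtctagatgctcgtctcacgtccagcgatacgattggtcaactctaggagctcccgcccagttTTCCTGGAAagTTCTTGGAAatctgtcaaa
Socs3: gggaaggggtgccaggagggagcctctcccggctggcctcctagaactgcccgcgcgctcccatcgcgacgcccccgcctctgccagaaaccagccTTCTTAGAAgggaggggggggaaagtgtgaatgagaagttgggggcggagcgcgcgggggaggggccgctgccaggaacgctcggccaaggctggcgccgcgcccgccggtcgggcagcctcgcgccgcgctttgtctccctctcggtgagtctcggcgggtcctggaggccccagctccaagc
Socs1: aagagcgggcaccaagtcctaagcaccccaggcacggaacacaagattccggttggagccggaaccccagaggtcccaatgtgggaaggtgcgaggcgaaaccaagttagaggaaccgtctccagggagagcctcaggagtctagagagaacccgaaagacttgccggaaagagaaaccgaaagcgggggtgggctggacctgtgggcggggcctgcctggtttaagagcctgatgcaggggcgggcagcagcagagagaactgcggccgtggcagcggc

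Between the lineages, Socs2, Cish and Stat5a stood higher in CD4 class cells, and no member stood as far apart in the other direction. The level of a gene is its UMIs per 10000 UMIs summed over a class. A gene counted as past 1.5-fold when its ratio of levels exceeded 1.5 or was below 0.667, among genes with at least 20 UMIs expected in the smaller class if the levels were equal. By that rule 3 of the 9 genes were higher in CD4 class and 0 lower. Of all 10202 genes that met the UMI minimum, 8.03% were higher and 7.13% lower.

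Among the SOCS genes, Socs2, which is known for restraining growth hormone and STAT5 signals, had a level of 1.16 in CD4 class and 0.306 in CD8 class, a ratio of 3.79 (interval 3.41 to 4.23). Cish, a feedback inhibitor induced by STAT5 that also restrains TCR signalling, had levels of 3.0 and 1.74, a ratio of 1.73 (1.64 to 1.82). Socs1, an inhibitor of JAKs downstream of interferons and common gamma chain cytokines, had levels of 1.51 and 1.29, a ratio of 1.17. Those for Socs3, which acts mainly on gp130 receptors such as the IL-6 receptor, were 1.07 and 0.986, a ratio of 1.09 (1.01 to 1.18). The lineages were thus far apart in Socs2 and close in Socs3. Cells thinned at random to 2000 UMIs, which removes depth differences, gave the same order in shares of cells with a UMI. Socs2 was detected in 14.3% of CD4 and 5.73% of CD8 class cells (26.8% of CD4 class cells without thinning), Cish in 40.9% and 27.1%, and Socs3 in 20.4% and 17.7%. Socs2 was also the most concentrated of the 9: over all kept cells it had 2436 UMIs in 1089 cells, and the 50 cells with the most held 21.4% of them, against 5.95% to 13.3% for the other members.

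Among the STAT genes, Stat5a had levels of 0.618 and 0.346, a ratio of 1.79 (1.59 to 2.01), and its copy Stat5b 0.602 and 0.449, a ratio of 1.34 (1.2 to 1.5). Stat4 stood at 1.90 and 1.63, a ratio of 1.17, and Stat6 at 0.590 and 0.532, a ratio of 1.11 whose interval (0.997 to 1.23) reached 1. Stat3 was the only member with a ratio under 1, at 2.63 in CD4 and 2.99 in CD8 class (0.880, interval 0.839 to 0.922). When 1 cell was kept per clonotype, the set of cells that share a receptor, Stat5b had a log2 ratio of 0.00, Socs3 of -0.14 and Stat3 of -0.47. That setting also left out every cell without both a productive alpha and beta receptor chain. Of the 5333 kept cells 2831 had a clonotype, and 1000 cells remained, so the 2 effects cannot be told apart. The largest CD4 and CD8 clonotypes held 40 and 259 cells.

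**Figure D1:**
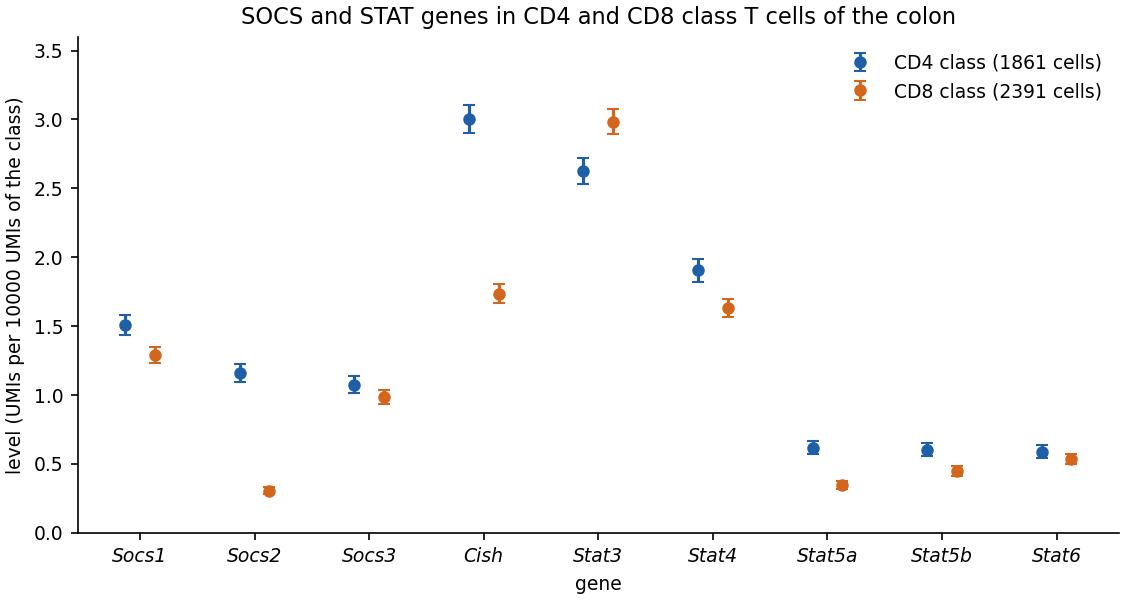
Level of each gene (y axis, UMIs per 10000 UMIs of the class) in CD4 class (1861 cells, blue) and CD8 class (2391 cells, orange). Points are the levels of the 1 pooled library and bars 95% Poisson intervals. Socs2, Cish and Stat5a lie higher in CD4 class (1.16, 3.0 and 0.618 against 0.306, 1.74 and 0.346), and Stat3 lies lower.

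Cells with Il2ra, the high-affinity subunit of the IL-2 receptor, had more Cish and Socs2 and less Socs3 in both lineages. A cell was called positive when it had at least 1 UMI of the marker after thinning to 2000 UMIs, and levels used all of its UMIs. In CD4 class, 384 cells were Il2ra-positive and 1477 negative, and in CD8 class 304 and 2087. In CD4 class 1 of 9 members was higher past 1.5-fold and 0 lower, against 1.23% and 3.11% of the 7694 genes that met the minimum. In CD8 class 2 were higher and 1 lower, against 1.94% and 3.87% of 7510.

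Cish was at 3.84 in Il2ra-positive and 2.77 in negative CD4 class cells, a ratio of 1.39 (1.28 to 1.5). In CD8 class it was at 2.67 and 1.58, a ratio of 1.69 (1.54 to 1.86). The CD4 ratio was the smaller, by -0.29 on the log2 scale (-0.46 to -0.12), a difference beyond counting error within this library. Socs2 was at 1.78 and 0.987 in CD4 class, a ratio of 1.80 (1.60 to 2.03), and at 0.537 and 0.267 in CD8 class, a ratio of 2.02 (1.62 to 2.50). One cell held 9.81% of the Socs2 UMIs of the Il2ra-positive CD4 class. Socs3 went the other way, at 0.786 and 1.15 in CD4 class (0.682, 0.581 to 0.798) and at 0.611 and 1.05 in CD8 class (0.583, 0.484 to 0.698). Its thinned share of cells was 14.8% against 21.9% in CD4 class and 10.9% against 18.7% in CD8 class. Socs1 had ratios of 1.21 and 1.19. Without cycling cells, taken as those with an Mki67 or Top2a UMI, Socs2 in CD4 class had a log2 ratio of 0.55, short of 1.5-fold. With 1 cell per clonotype Socs2 and Socs3 in CD8 class had 0.42 and -0.45.

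The STAT genes stood closer to 1 than Socs2, Cish and Socs3. Stat4 had a ratio of 1.17 in CD4 and 1.37 (1.24 to 1.52) in CD8 class, and Stat3 of 1.18 and 1.22. Stat5b was at 0.491 and 0.633 in CD4 class, a ratio of 0.775 (0.630 to 0.948), and had a ratio of 0.976 in CD8 class. For Stat5a, which with Stat5b carries the IL-2 signal, the ratios were 1.01 and 1.23 (0.970 to 1.55), and for Stat6 1.09 and 0.95. Macrophage transcripts were lower in Il2ra-positive cells. All 10 markers were detected in positive and negative CD4 class cells at summed levels of 0.57 and 1.23. In Il2ra-positive CD8 class cells 7 of 10 were detected at 0.43, with Csf1r, Adgre1 and Cd14 at 0, against 10 of 10 at 0.97 in negative ones. Without the cells that carried macrophage markers, the Socs3 log2 ratios were -0.53 in CD4 class and -0.73 in CD8 class, against -0.55 and -0.78 with them.

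Levels were also read by the number of Il2ra UMIs in the thinned cell. In CD8 class, Cish was at 1.58 with 0, 2.47 with 1, 3.09 with 2 and 4.05 with 3 or more Il2ra UMIs, in 2087, 224, 61 and 19 cells. In CD4 class it was at 2.77, 3.87, 3.58 and 4.04, so the step lay between 0 and 1 UMI and the intervals of the later steps overlapped. Socs2 in CD4 class was at 0.99, 1.74, 1.54 and 2.52, and Socs3 at 1.15, 0.80, 0.80 and 0.67. Stat3 was at 2.53, 2.84, 3.34 and 3.51 in CD4 class and at 2.89, 3.45, 3.64 and 4.16 in CD8 class. The top step rests on 36 CD4 and 19 CD8 class cells, and Socs3 there on 15 and 4 UMIs.

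**Figure D2:**
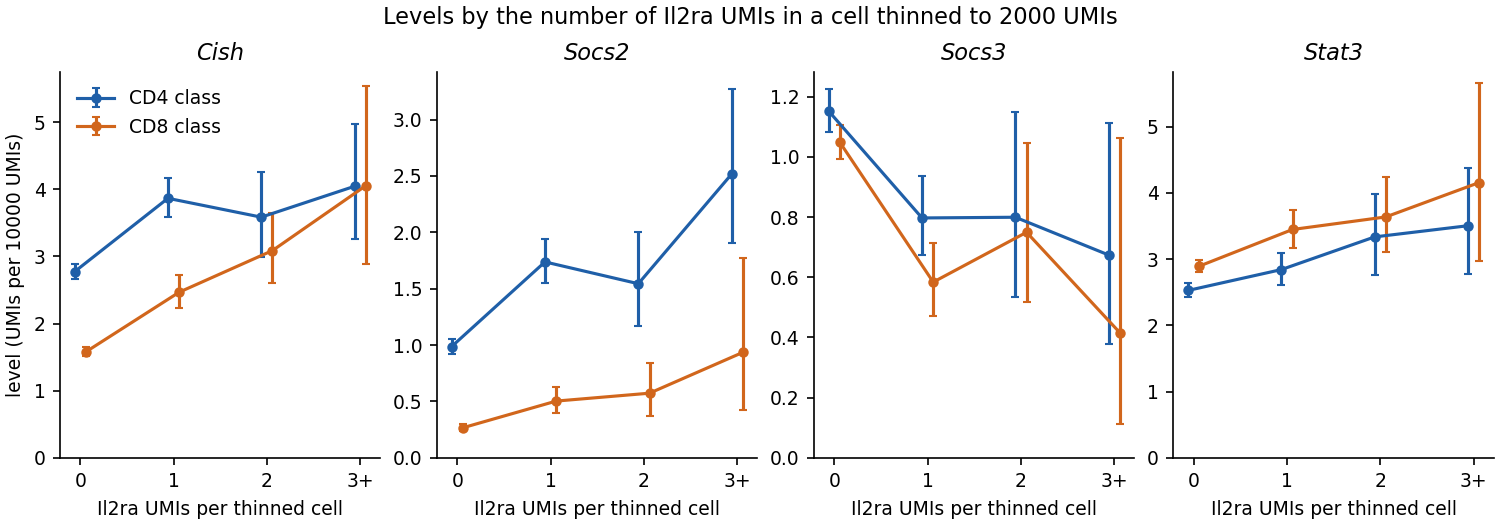
Levels of Cish, Socs2, Socs3 and Stat3 (y axis, UMIs per 10000 UMIs) by the number of Il2ra UMIs in a cell thinned to 2000 UMIs (x axis), in CD4 (blue) and CD8 class (orange), with 95% Poisson intervals as bars. Cish in CD8 class goes from 1.58 to 4.05, and Socs3 lies lower in cells with Il2ra UMIs than in cells without in both lineages.

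Cells with Ifng, the gene of the Th1 and cytotoxic cytokine interferon gamma, had more Cish in both lineages and, in CD4 class, less Socs2. In CD4 class (385 positive, 1476 negative cells) 0 members were higher past 1.5-fold and 1 lower, against 1.59% and 2.03% of 7667 genes. In CD8 class (573 positive, 1818 negative) 1 was higher and 0 lower, against 1.92% and 1.8% of 8483.

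Cish was at 3.84 in Ifng-positive and 2.78 in negative CD4 class cells (1.38, 1.28 to 1.49), and at 2.38 and 1.54 in CD8 class (1.54, 1.42 to 1.67). Socs1 was at 1.69 and 1.17 in CD8 class, a ratio of 1.44 (1.31 to 1.59), and had a ratio of 1.17 in CD4 class. Socs3 was at 1.23 and 0.913 in CD8 class, a ratio of 1.34 (1.2 to 1.5), and had a ratio of 1.09 in CD4 class. For both genes the CD8 ratio was the larger, with a log2 difference, CD4 minus CD8 class, of -0.30 (-0.51 to -0.09 for Socs1, -0.55 to -0.05 for Socs3). Socs2 was at 0.819 and 1.25 in CD4 class (0.655, 0.559 to 0.763) and at 0.334 and 0.297 in CD8 class (1.13, 0.904 to 1.39), a log2 difference of -0.78 (-1.16 to -0.41). With 1 cell per clonotype the CD8 class log2 ratio of Socs2 was -0.77, in the direction of the CD4 class one. Of the STAT genes, Stat5a had a ratio of 1.30 (1.09 to 1.54) in CD4 class and 0.948 in CD8 class. The ratios of Stat3 were 1.11 and 1.14, of Stat4, which mediates IL-12 induction of Ifng, 1.09 and 1.17, of Stat5b 0.976 and 0.952, and of Stat6 1.02 and 1.11. None of the STAT genes was past 1.5-fold in either lineage. Without Gata3-positive cells the Socs2 log2 ratio in CD4 class was -0.46, and that of Cish in CD8 class was 0.55 without cycling cells and 0.34 with 1 cell per clonotype, all short of 1.5-fold. Macrophage markers summed to 0.65 in positive and 1.21 in negative CD4 class cells, with 10 of 10 detected in each, and to 0.50 (9 of 10, Adgre1 at 0) and 1.01 (10 of 10) in CD8 class. Without the cells that carried macrophage markers, the Socs3 log2 ratios were 0.17 in CD4 class and 0.44 in CD8 class, against 0.12 and 0.42 with them.

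The Il4-positive CD4 class cells, 54 against 1807 negative, held the highest Socs2 level of the marker classes examined. Only 6 of the 9 members met the UMI minimum, of which 1 was higher and 1 lower past 1.5-fold, against 3.63% and 19.1% of 2288 genes. The median log2 ratio of those genes was -0.21, so ratios relative to that median are given as well. Socs2 was at 5.49 in Il4-positive and 1.03 in Il4-negative cells, a ratio of 5.31 (4.50 to 6.25) and of 6.13 relative to the median. It was detected in 26 of the 54 thinned cells, or 48.1% (34.3% to 62.2%), against 13.3% of Il4-negative cells, and no single cell held more than 7.60% of its 171 UMIs. Socs3 was at 0.225 and 1.10, a ratio of 0.205 (0.082 to 0.423) and of 0.236 relative to the median. That value rests on 7 UMIs, 3 of them from 1 cell, and on 3 of 54 thinned cells (5.56%) against 20.9%.

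The low Socs3 value moved with the draw of thinned cells: another random draw gave 48 positive cells with 13 Socs3 UMIs and a log2 ratio of -1.03, against -2.29, while Socs2 gave 2.52 against 2.41. Cish (3.34 and 2.99, ratio 1.12), Socs1 (1.09), Stat3 (0.941) and Stat4 (0.995) stood near 1. The ratio of Stat6, which transmits the IL-4 signal itself, was 1.15, of Stat5b 0.850 and of Stat5a 0.512 on 10 UMIs, and all 3 fell short of the UMI minimum. Il4-positive cells also differed in other lists: cycling genes summed to 3.57 against 8.42, with 6 of 6 detected in both, and macrophage markers to 0.19 (4 of 10 detected; C1qa, C1qb, Csf1r, Adgre1, Cd14 and H2-Aa at 0) against 1.11 (10 of 10). Without cycling cells the Socs2 log2 ratio was 2.38 and that of Socs3 -1.91, without macrophage-marker cells 2.42 and -2.21, and without Gata3-positive cells 2.60 and -3.07 on 24 Il4-positive cells. The share of Il4-positive cells in CD8 class, a background for stray Il4 transcripts, was 0.08% (2 cells).

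Il17a-positive CD4 class cells, 35 against 1826, had the reverse for Socs2. Of 6 members that met the minimum 1 was higher and 1 lower, against 4.01% and 8.62% of 1972 genes. Cish was at 4.82 and 2.96, a ratio of 1.63 (1.35 to 1.95), and 1 cell with 20 UMIs held 15.7% of the Cish UMIs. Socs2 was at 0.341 and 1.18, a ratio of 0.290 (0.132 to 0.552) that rests on 9 UMIs. Il4- and Il17a-positive cells thus sat at opposite ends for Socs2. Socs3 had a ratio of 1.17, Socs1 of 1.11, Stat3, the main STAT of the Th17 program, of 1.15, and Stat4 of 1.14. Stat5a (1.55, 0.998 to 2.31), Stat5b (1.2) and Stat6 (0.899) were under the UMI minimum. Macrophage markers summed to 0.11 (3 of 10 detected; Cd68, C1qa, C1qb, C1qc, Csf1r, Adgre1 and Cd14 at 0) against 1.11, and cycling genes to 11.3 against 8.21. Another draw of thinned cells gave Cish a log2 ratio of 0.55, short of 1.5-fold, and without cycling cells Cish was at 0.92 while Socs2, with 3 UMIs, was under the minimum. The share of Il17a-positive cells in CD8 class was 0.04%.

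**Figure D3:**
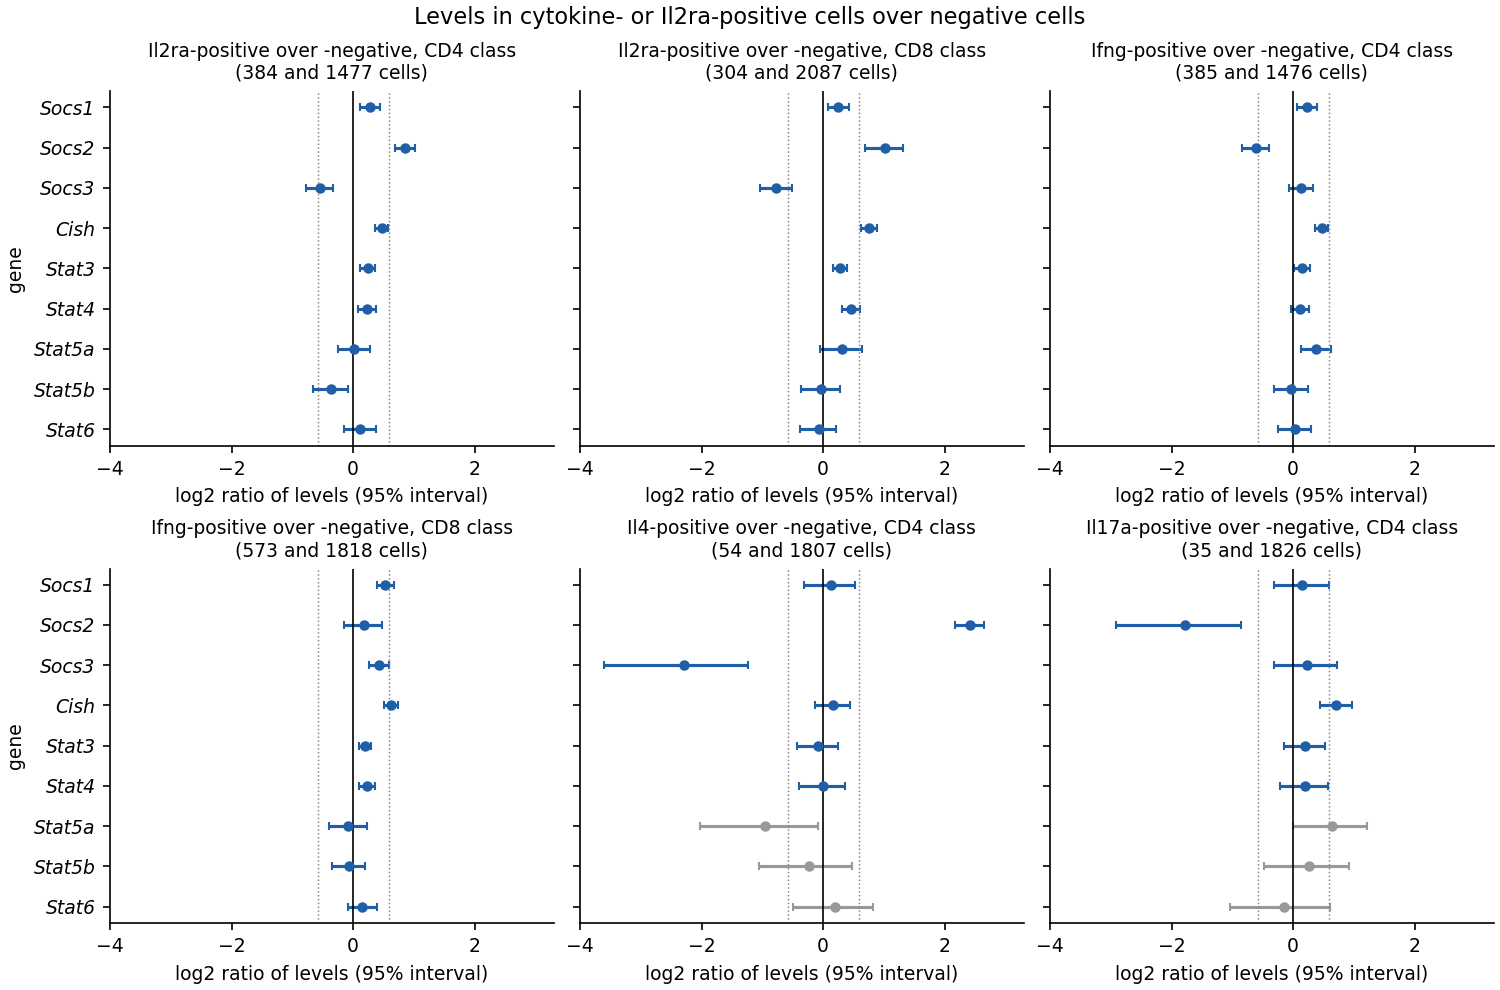
Log2 ratio of each gene's level in marker-positive over marker-negative cells (x axis), 1 panel per marker and lineage, with 95% intervals as bars. The solid line marks equal levels and the dotted lines 1.5-fold, and grey points are genes under the UMI minimum. Socs2 lies far right in the Il4 panel (5.31-fold) and left in the Il17a panel (0.290), and Cish lies right of the line in the Il2ra and Ifng panels of both lineages.

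Further marker classes, which overlap each other, extended the Socs2 pattern. Csf2-positive CD4 class cells (186 cells; Csf2 encodes GM-CSF, the cytokine in the title of the series) had 3 members past 1.5-fold, against 12.4% of genes. These were Socs2 at 2.86 and 0.978 (2.93, 2.57 to 3.33), Stat5a at 0.976 and 0.581 (1.68, 1.35 to 2.08) and Socs1 at 2.34 and 1.42 (1.65, 1.43 to 1.89), and 1 cell with 42 UMIs held 13.8% of the Socs2 UMIs. Beside them, 7 of 13 dissociation stress genes were higher (median log2 ratio 0.67, against -0.10 over all genes) and 2 of 6 cycling genes lower, and their part in these ratios was not tested. Cells with Gata3, the transcription factor of type 2 cells (294 cells, 1 member past 1.5-fold against 7.02% of genes), had Socs2 at 2.59 and 0.909, a ratio of 2.85 (2.54 to 3.21). Il13-positive cells (32 cells, 2 members against 14% of genes) had Socs2 at 3.49 and 1.10 (3.16) and Socs3 at 0.436 and 1.09 (0.401, 11 UMIs). The type 2 markers Il4, Gata3 and Il13 thus each went with high Socs2. Macrophage markers summed to 2.22 in Csf2-positive against 0.97 in negative cells and to 2.25 against 0.89 for Gata3 (9 of 10 detected in the positive cells of each, Adgre1 at 0), and their part was not tested.

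Il10-positive CD4 class cells (48 cells; Il10 encodes a regulatory cytokine) showed the reverse pair, with 3 members past 1.5-fold against 15.2% of genes. Socs3 was at 2.39 and 1.05 (2.29, 1.70 to 3.01), Socs2 at 0.496 and 1.17 (0.424, 11 UMIs) and Stat4 at 1.13 and 1.92 (0.588). Macrophage markers summed to 0.45 in them against 1.10, and all 4 cycling genes that met the UMI minimum were lower (median log2 ratio -1.85), whose part was not tested. In Tbx21-positive cells (254 cells), which carry the Th1 factor, 0 of 9 members were past 1.5-fold, against 4.49% of genes. Among Il22-positive cells (24 cells, 13.5% of genes) only 4 of 9 members met the minimum, with 0 past 1.5-fold, and Socs2 had a ratio of 0.359 on 7 UMIs. For Foxp3-positive, regulatory-type cells (22 cells, 19.5% of genes) it was 3 of 9, again with 0 past 1.5-fold, and their Socs2 ratio of 2.12 on 28 UMIs was under the minimum. Mki67-positive, dividing CD4 class cells (266 cells, 3 members against 20.2% of genes) had lower Socs3 (0.585), Socs2 (0.648) and Stat5a (0.664). In the same cells 8 of 14 stress genes were lower (median log2 ratio -0.77), and their part was not tested.

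In CD8 class the pattern differed by marker. Csf2-positive cells (29 cells, 2 of the 4 members that met the minimum past 1.5-fold, against 12.7% of genes) had Cish at 3.78 and 1.71 (2.21, 1.74 to 2.78) and Socs1 at 2.37 and 1.28 (1.86), and Socs2 had a ratio of 3.4 on 20 UMIs, under the minimum. Of 8 stress genes 7 were higher in them (median log2 ratio 0.80), and their part was not tested. Xcl1-positive cells (168 cells; Xcl1 is a chemokine for cross-presenting dendritic cells; 2 members against 8.89% of genes) had Stat3 at 4.55 and 2.84 (1.60, 1.47 to 1.75) and Stat5a at 0.531 and 0.328 (1.62). Cells with Prf1, the gene of the pore protein perforin (558 cells, 1 member against 4.27%), had Socs2 at 0.417 and 0.273 (1.53). Mki67-positive cells (414 cells, 1 member against 18.7%) had Socs3 at 0.676 and 1.10 (0.617), beside 5 of 14 stress genes lower (median log2 ratio -0.32), whose part was not tested. In cells with the granzyme gene Gzmk, 0 members were past 1.5-fold against 5.3% of genes.

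Socs2 and Socs3 were also compared within cells. Among thinned CD4 class cells, Socs3 was detected in 12.8% (9.02% to 17.4%) of 266 Socs2-positive cells and in 21.7% (19.7% to 23.8%) of the others. In CD8 class the shares were 17.5% and 17.8%. By level, Socs3 was at 0.717 in Socs2-positive and 1.13 in Socs2-negative CD4 class cells (0.636, against 9.36% of genes past 1.5-fold either way), and Socs2 had a ratio of 0.609 in Socs3-positive cells (5.54% of genes). Socs2-positive CD8 class cells instead had Cish at a ratio of 1.62 and Stat5a at 0.620 (4.42% of genes). Socs1 and Cish went together, with Cish detected in 49.7% of Socs1-positive and 38.0% of other CD4 class cells, and in 33.1% and 25.4% in CD8 class.

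**Figure D4:**
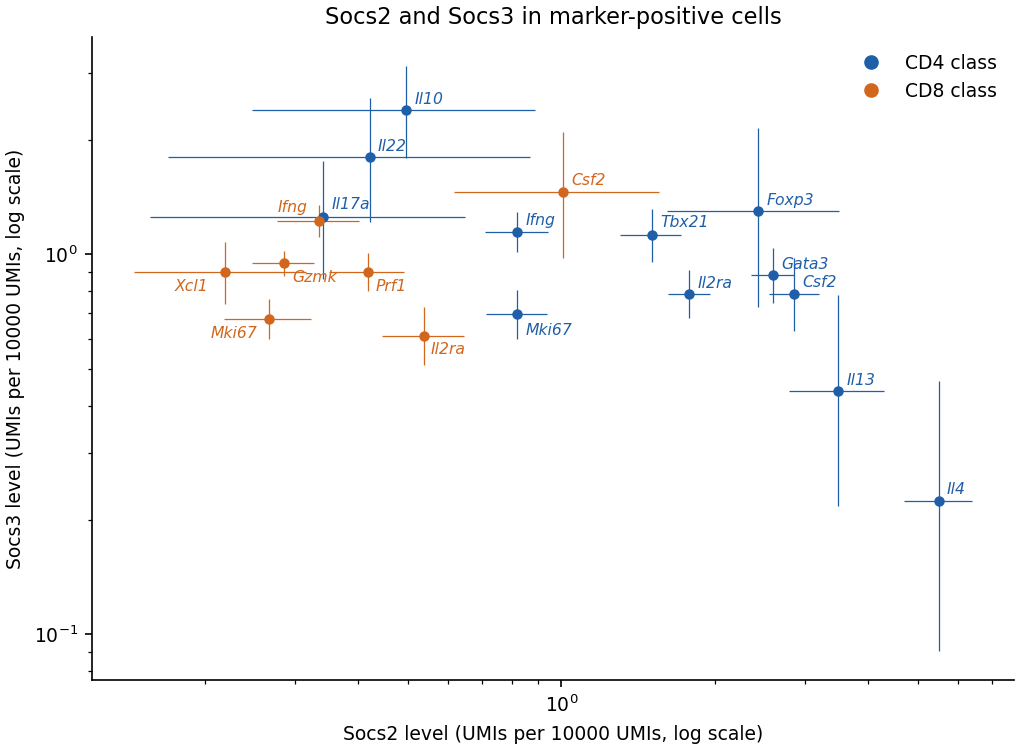
Socs2 level (x axis) against Socs3 level (y axis), both in UMIs per 10000 UMIs on log scales, in the cells positive for each marker named beside its point, in CD4 (blue) and CD8 class (orange), with 95% Poisson intervals as bars. The classes share cells and 1 library. Il4-positive cells lie at the lower right (5.49 and 0.225) and Il10-positive cells at the upper left of the CD4 points (0.496 and 2.39).

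To see whether the marker ratios also held among similar cells, they were recomputed inside clusters with at least 10 positive and 10 negative cells. For Il2ra, Cish was higher in positive cells in 5 of 5 CD4 class clusters (ratios 1.15 to 1.90, interval above 1 in 4) and in 4 of 4 CD8 class clusters (1.47 to 1.89, interval above 1 in 4). Socs3 was lower in 4 of 5 (0.330 to 1.01) and 4 of 4 (0.426 to 0.899), with the interval below 1 in 2 and 3. Socs2 varied more, with a ratio above 1 in 4 of 5 CD4 class clusters (0.968 to 3.0) and 3 of 4 CD8 class clusters (0.987 to 4.80), and an interval above 1 in 2 and 1. For Ifng, Cish was higher in 5 of 5 clusters of each lineage (1.17 to 1.88 in CD4, 1.08 to 1.57 in CD8 class), and Socs1 and Socs3 in 5 of 5 CD8 class clusters (1.19 to 2.18 and 1.01 to 2.21). The lower Socs2 of Ifng-positive CD4 class cells was less even. Its ratio was below 1 in 4 of 5 clusters (0.601 to 2.12), with the interval below 1 in only 1. Inside the Th2-like cluster 5, which held 42 of the 54 Il4-positive cells (77.8%), the Il4 ratio of Socs2 was 1.48 (1.24 to 1.77), from levels of 6.76 and 4.55, against 5.31 over all CD4 class cells. That of Socs3 there was 0.288, from 0.21 and 0.73. Inside the Th17-like cluster 2, which held 21 of the 35 Il17a-positive cells (60.0%), Cish had a ratio of 2.0 (1.53 to 2.57), from 6.20 and 3.11. Socs2 had a ratio of 0.653 there, on 4 UMIs in the positive cells, and its interval (0.175 to 1.71) included equal levels.

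Clustering of all kept cells gave 14 clusters, 10 of them with at least 100 cells, and Socs2 varied most across them. Clusters were numbered by size and named "like" only from marker lists. They were built from 2000 variable genes of these same cells, with no member held out, so the levels are a description. Cluster 5 (493 cells, Th2-like by Gata3, Il4, Il5, Il13, Il1rl1 and Ccr8) had Socs2 at 5.05 (4.76 to 5.35). The next 9 followed from cluster 7 at 0.77 (CD8 cytotoxic-like), cluster 8 at 0.71 (cycling-like, mostly CD4 class), cluster 4 at 0.55 (CD4, led by Krt17 and Penk, unnamed) and cluster 2 at 0.51 (Th17-like) down to cluster 1 at 0.14 (CD8 cytotoxic-like). Only the step from cluster 5 to cluster 7 lay outside the intervals, and highest over lowest was 35.5-fold. The 32 cells of the Treg-like cluster 13, under the size minimum, had Socs2 at 1.91 (1.31 to 2.68).

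Socs3 was highest in cluster 6 (481 cells, mostly CD4 class, led by Gcg, Il10 and S1pr1, unnamed) at 2.30 (2.09 to 2.52), then in cluster 1 at 1.41, cluster 9 at 1.28, cluster 4 at 1.22, cluster 2 at 1.2 and cluster 7 at 0.99. Clusters 3 (cycling-like, mostly CD8 class), 5, 10 and 8 followed at 0.74, 0.71, 0.64 and 0.63, and the steps after cluster 6 and after cluster 7 lay outside the intervals. The Th2-like cluster, highest for Socs2, was thus among the lowest for Socs3. The 56 cells of macrophage-like cluster 11 had Socs3 at 4.31 (3.76 to 4.93). That cluster also held marker transcripts of neutrophils, epithelium and fibroblasts, and 11 and 12 of its cells were in CD4 and CD8 class.

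Cish was highest in cluster 4 at 3.98, then in cluster 2 at 3.32, clusters 7 and 5 at 3.08 and 3.06, cluster 8 at 2.44, cluster 10 at 2.34, cluster 6 at 2.18, cluster 9 at 1.93, and clusters 3 and 1 at 1.43 each. Its steps after clusters 4, 5 and 9 lay outside the intervals. The Treg-like cluster 13 had Cish at 5.55 (4.49 to 6.77). Socs1 had its top levels of 2.10 and 2.02 in clusters 4 and 5 and its lowest of 0.90 in cluster 10, a span of 2.34-fold, with steps outside the intervals after clusters 5 and 6. The 33 cells of the interferon response-like cluster 12 had Socs1 at 3.35 (2.49 to 4.40), beside high Stat4 at 3.41 (2.55 to 4.48).

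Of the STAT genes, Stat3 was highest in cluster 9 (257 cells, CD8 class, led by Gzmd, Gzme and Xcl1) at 6.15 (5.76 to 6.55), then in cluster 4 at 4.27 and cluster 7 at 3.16. It stood at 2.47 to 2.79 in clusters 6, 1, 3, 5 and 2, and at 1.79 and 1.39 in clusters 8 and 10. The Th17-like cluster, at 2.47, was thus in the lower part of the Stat3 order. Stat5a was highest in cluster 4 at 1.37 (1.23 to 1.51), followed by clusters 9, 6 and 2 at 0.61, 0.56 and 0.55, and lowest in cluster 10 at 0.15. Cluster 4 also led for Stat4 at 2.77, ahead of cluster 2 at 2.11, with the lowest level in cluster 10 at 1.15. Stat5b (0.34 to 0.82) and Stat6 (0.44 to 0.73) had no step between neighbours in rank outside the intervals, but their extremes lay apart. Stat5b was at 0.825 (0.704 to 0.961) in cluster 6 and 0.339 (0.270 to 0.422) in cluster 7. Stat6 was at 0.727 (0.630 to 0.834) in cluster 4 and 0.441 (0.393 to 0.493) in cluster 3. In the Th2-like cluster Stat6 was at 0.67. Cluster 10 was led by the stress genes Hspa1a and Hspa1b and was lowest for Socs1, Stat3, Stat4 and Stat5a, and the part of stress in those levels was not tested.

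With coarser and finer clustering (resolution 0.4 and 1.2 in place of 0.8), Socs2 was highest in a cluster that shared 483 and 201 cells with cluster 5, at 5.10 and 7.52. Socs3 was highest in one that shared 231 and 239 cells with cluster 6, at 3.09 and 3.08. Stat3 at the coarser setting was highest in a cluster of 192 cells that shared 30 with cluster 9. The same cluster, which shared 104 cells with cluster 4, was highest for Cish, Stat5a and Stat6. Socs1 at that setting was highest in a cluster that shared only 2 cells with cluster 4. At the finer setting the top cluster of Socs1, Cish, Stat4 and Stat5a shared 383 cells with cluster 4, and that of Stat6 shared 1.

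**Figure D5:**
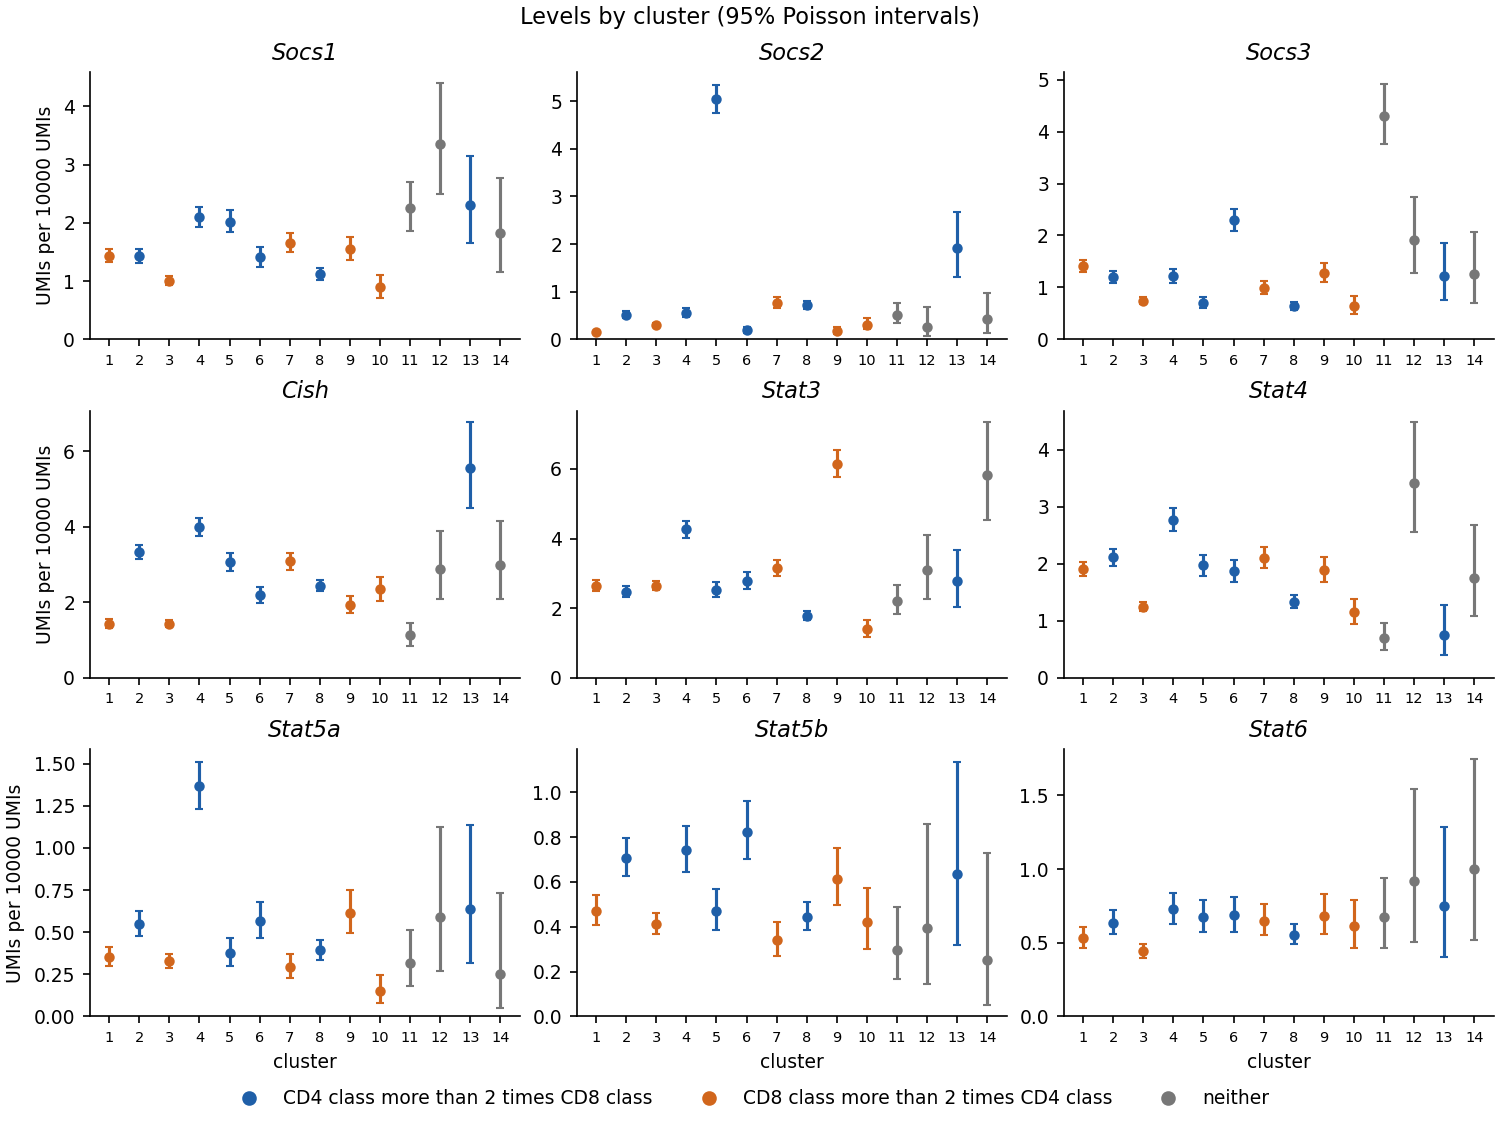
Level of each gene (y axis, UMIs per 10000 UMIs, 1 panel per gene) in the 14 clusters (x axis, numbered by size), with 95% Poisson intervals as bars. Blue and orange mark clusters in which CD4 or CD8 class cells outnumber the other by more than 2 to 1, and grey the rest. Socs2 stands out in cluster 5 (5.05), Stat3 in cluster 9 (6.15) and Stat5a in cluster 4 (1.37).

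Genes with the most similar profile were ranked by Pearson r of log2(level + 0.05) over the 10 clusters of at least 100 cells, which share 1 library and its depth differences. For Socs2 they were Dkkl1 (0.901), Ifitm2 (0.897) and Frmd4b (0.895), for Socs3 Rbm18 (0.959) and Atxn2l (0.948), and for Socs1 Sqstm1 (0.95), Zbtb21 (0.939) and Nabp1 (0.937). For Cish they were Mapkapk3, Xlr4a (0.921 each) and Aamdc (0.920). Mapkapk3, a stress-activated kinase gene, lies 6148 bases from Cish on the opposite strand (chromosome 9, 107254927 to 107289877). For Stat3 they were Tmem175 (0.978), Nr4a2 (0.958) and Zfp800 (0.946), for Stat4 Tlcd2 (0.95), Smad7 (0.945) and Bcl2a1b (0.943), and for Stat5a Coq8a (0.959), Bcl2l1 (0.958) and Scyl2 (0.954). For Stat5b and Stat6 the most similar were Rnf145 (0.930) and Cflar (0.918). With 0.5 added to the level in place of 0.05, the first gene for Socs2 was Atf3 (0.941), and Ifitm2 was no longer listed. Atf3 is in the dissociation stress list, and the part of stress in the Socs2 profile was not tested. The first gene of every other member stayed the same. Bcl2l1, the survival gene of Bcl-xL and a textbook STAT5 target, was at 1.25 in cluster 4 and at 0.13 in cluster 10. Between members, r was 0.92 for Socs1 and Stat4, 0.76 for Stat5a and Stat5b and -0.51 for Socs2 and Socs3.

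The rest of the pathway was followed through gene lists, without the genes that set the classes. For CD4 over CD8 class, 1 of 6 JAKs and other STATs was higher past 1.5-fold, Jak2 at 0.651 and 0.348 (1.87), and the list's median log2 ratio was -0.12, against -0.04 over all genes. Of 13 other SOCS genes, phosphatases and PIAS genes 2 were higher (Sh2b3 1.71 and Socs5 1.67, median 0.13). Of 8 receptors of the common gamma chain family 3 were higher and 1 lower (median 0.48), with Il7r, the IL-7 receptor, at 4.52 and 1.80 (2.50) and Il9r at a ratio of 27.4 (8.96 to 136.7) on 3 CD8 class UMIs. Of 7 IL-6, IL-10 and IL-12 family receptors that met the UMI minimum 2 were higher and 2 lower (median 0.20), with Il23r at 43.2 (16.5 to 160.9) on 4 CD8 class UMIs and Il10ra at 0.510. Of 4 interferon receptor genes 1 was higher (Ifngr2 3.92, median 0.05).

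Target lists for the same comparison hold genes that textbooks place under each STAT. Of 10 STAT5 targets 4 were higher and 0 lower (median 0.53), led by Bcl2l1 at 0.535 and 0.266 (2.01) and Osm at 0.095 and 0.032 (2.95). Of 7 STAT4 targets 3 were higher (median 0.40), with Furin at 3.02 and 0.432 (6.98) and Il18r1 at 1.84 and 1.07 (1.72). Of 7 STAT3 targets 6 were higher (median 3.95) and of 6 STAT6 targets 5 (median 3.2), among them the CD4 cytokine genes Il17a (66.9, 7 CD8 class UMIs), Il22 (441.2, 78.6 to 17479, 1 UMI), Il4 (98.0, 33.1 to 479.1, 3 UMIs) and Il5 (71.5, 12.3 to 2877, 1 UMI). Of 14 dissociation stress genes 5 were higher (median 0.32), among them Atf3 (3.55) and Junb (1.86), and 0 of 6 cycling genes (median -0.21). The part of stress in the CD4 and CD8 levels of Socs2, Cish and Stat5a was not tested.

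The lists were counted in the marker comparisons too, and each count is set against the share of all genes past 1.5-fold given above for that comparison. In Il2ra-positive CD8 class cells 1 of 8 STAT5 targets was higher, Bcl2l1 at 0.547 and 0.219 (2.50), and of 7 STAT4 targets 3 were higher, among them Furin (2.03) and Ifng (1.78), and 1 lower, while 3 of 13 stress genes were lower (Hspa1a 0.238, Ier3 0.348). In Il2ra-positive CD4 class cells 1 of 9 STAT5 targets was higher, Myc at 0.587 and 0.341 (1.72), and of 13 stress genes 1 was higher and 3 lower (Hspa1a 0.368, Zfp36 0.615). Ifng-positive CD8 class cells had 2 of 9 STAT5 targets higher (Myc 1.70, Il2ra 1.51), 2 of 6 STAT4 targets (Gadd45g 2.25, Furin 1.55) and 5 of 14 stress genes (Zfp36 2.58, Hspa1a 2.82), beside the higher Socs1, Socs3 and Cish given above. The part of stress in those ratios was not tested. Ifng-positive CD4 class cells had 0 of 10 STAT5 targets past 1.5-fold and 3 of 5 STAT6 targets lower, with Gata3 at 0.663 and 1.02 (0.647) and Il13 at 0.131 and 0.228 (0.575), in the same direction as Socs2.

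In Il4-positive cells both STAT6 targets that met the UMI minimum were higher, Gata3 at 4.34 and 0.849 (5.11) and Il4ra, the IL-4 receptor, at 1.73 and 1.13 (1.53). Of 6 STAT5 targets 3 were higher and 1 lower, with Il2ra at 3.31 and 1.39 (2.38) and Ccnd2 at 3.92 and 1.67 (2.35). Of 6 STAT4 targets 3 were lower, among them Il18r1 (0.257) and Ifng (0.380), in a comparison where 19.1% of all genes were lower. Of 10 stress genes 3 were higher, with Zfp36 at 3.0 and Fos at 2.73, and the part of stress in the Socs2 and Socs3 levels of these cells was not tested. Il17a-positive cells had 3 of 6 STAT5 targets lower, among them Bcl2 (0.364) and Ccnd3 (0.655), and 3 of 10 stress genes lower. Of 5 STAT4 targets 1 was higher, Furin at 6.45 and 2.94 (2.20), and 1 lower, Il12rb2 (0.322).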

How the data were processed

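The authors deposited 1 matrix of UMI counts per gene and barcode and a table of assembled TCR contigs, made with Cell Ranger on mm10 per the submitters' processing notes. The version and annotation they used were not given in the sources used here. Those deposited counts are not normalized. Barcodes with at least 500 genes and at most 10% mitochondrial UMIs were kept. No doublet caller was run; leaving out 232 cells with 2 or more TRB chains was tried instead. UMIs were summed per class and given per 10000 UMIs, with exact Poisson intervals for levels, exact conditional binomial intervals for ratios and Clopper-Pearson intervals for shares, and cells were thinned to 2000 UMIs (seed 1) to call marker-positive cells. Clusters used 2000 variable genes without receptor segments, 30 principal components, 15 neighbours and Leiden resolution 0.8. Symbols came from the deposited gene table, and positions from GENCODE M21.

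All 9 members were named in the 7 main comparisons (CD4 over CD8 class, Il2ra, Ifng, Il4 and Il17a), and in further classes those past 1.5-fold, with Socs2 in some where it was under the minimum. From each gene list up to 2 genes past 1.5-fold, by the interval bound nearest 1, were named, and the 3 most similar genes per member (the first for Stat5b and Stat6) among genes with at least 500 UMIs. Some results of these rules are not reported here. Members and lists were chosen with earlier results of these data known. Ratio calls were tried on simulated Poisson counts with known changes. The simulation had no variation between cells or clonotypes, so it cannot show how that variation affects the calls. Python 3.11.15, numpy 2.4.6, scipy 1.17.1, pandas 2.3.3, matplotlib 3.10.9, python-igraph 0.11.9 and leidenalg 0.10.2 were used. Alternatives covered filters, lineage rule, thinning, clonotypes, doublets, macrophage and cycling cells.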

Additional observations from a re-analysis of the deposited data

Results flagged for a closer look

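The Ifng ratios of Socs2 and Stat5a, as reported, lay on opposite sides of equal levels in the lineages, though the CD8 class intervals of both included equal levels. For Socs2 the log2 ratio of Ifng-positive over Ifng-negative cells was -0.61 in CD4 class and 0.17 in CD8 class, a difference of -0.78 (-1.16 to -0.41). For Stat5a it was 0.38 and -0.08, a difference of 0.46 (0.07 to 0.84). Both intervals cover counting error only, and the differences were not tested, since there was 1 pooled sample. With 1 cell per clonotype the CD8 class log2 ratio of Socs2 was -0.77. That of Stat5a kept its sign in 14 of 18 alternatives and was 0.30 with thinning to 1000 UMIs.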

How the results depend on the processing

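Of 1089 member ratios recomputed under alternative settings, 1012 stayed within the interval of the reported ratio and 77 did not, and no ratio past 1.5-fold changed direction. The count of members past 1.5-fold between CD4 and CD8 class was 3 under the settings tried, except 4 without cycling cells. For Il2ra in CD4 class (1 as reported) it was 2 with 1 cell per clonotype, with thinning to 1000 UMIs, with another draw and with at least 2 marker UMIs, 3 without thinning and 0 without cycling cells. For Il2ra in CD8 class (3) it was 1 with 1 cell per clonotype and 5 without cycling cells. For Ifng in CD4 class (1) it was 0 without cells with 2 TRB chains or without Gata3-positive cells and 2 without cycling cells. For Ifng in CD8 class (1) it was 0 without cycling cells, 2 with the mean over cells and 3 with at least 2 marker UMIs; with 1 cell per clonotype it was 1 again, but of Socs2 (lower, -0.77) in place of Cish. For Il4 (2) it was 1 with 2 UMIs of the lineage genes and with 1 cell per clonotype, and 0 with at least 2 marker UMIs (no member met the UMI minimum) and without Gata3-positive cells (where Socs2, at a log2 ratio of 2.60, was under the minimum). For Il17a (2) it was 1 without cycling cells, with thinning to 3000 UMIs, without thinning, with another draw and with at least 2 marker UMIs; 1 cell per clonotype was not run, as under 5 positive cells remained. The cause of these differences was not tested. The log2 ratio of Socs2 was 1.58 to 2.18 between CD4 and CD8 class and 2.12 to 2.93 for Il4 over all alternatives run. No paired analysis was possible because there was 1 pooled RNA sample and no test. Scaling to the median of all genes, leaving out Gata3- or Foxp3-positive cells and taking the lineage from clusters were chosen after seeing the data. The number of cells limits the small classes: 6 of 9 members met the UMI minimum for Il4 and Il17a, 4 for Il22 and for Csf2 in CD8 class, and 3 for Foxp3.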
